A study of Arabidopsis thaliana with 8 samples.

Results

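Plants of the genotype path1-4path2-1summ2-8 were compared with plants of the genotype path1-4summ2-8, so that the only labelled difference was the path2-1 mutation. The libraries were chosen by the genotype in their labels, 3 biological replicates each. Of the 37336 genes in the count table, 20346 had enough counts to be tested, and all of them are described here. The study sequenced RNA from above-ground tissue of 8 Arabidopsis thaliana genotypes, 24 libraries in all, to find genes behind the developmental programs that PAT proteins regulate. The plants had grown for 6 weeks at 21 °C in 8 h of light and 16 h of dark. The genotypes are every combination of the pat1-1, path1-4 and path2-1 mutations. Every line, the control included, also carries summ2-8, a mutation of SUMM2, and the names below leave summ2-8 out except for the control itself.

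PAT1 proteins bind messenger RNAs that have lost their poly(A) tail and, with the ring of LSM1 to LSM7 proteins, promote removal of the 5′ cap, after which the transcript is degraded. Arabidopsis has the paralogs PAT1, PATH1 and PATH2. SUMM2 is an intracellular immune receptor that sets off autoimmunity when the MPK4 kinase pathway or PAT1 is lost, which is why mutants of this family are studied without it.

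Total counts were 26581585, 14187145 and 20276355 in the path1-4 libraries and 39180748, 23161517 and 34458582 in the path1-4path2-1 libraries, so that path1-4 replicate 2 was the shallowest of all 24. Replicates of either genotype correlated at 0.981 to 0.9935 across genes (Pearson's r of log2 normalised counts, 20346 genes), and libraries of different genotypes at 0.9739 to 0.9843. Expression is given below as TMM-normalised CPM, the counts of a gene scaled to a common library size, except for sums over marker and photosynthesis lists. In a principal component analysis of all 24 libraries, the second component, with 14.51% of the variance, held the path1-4path2-1 libraries at 25.5 to 36.7 and the pat1-1path2-1 libraries at 36.8 to 42.2, while the other 18 libraries lay from -26.1 to -2.83. Both genotypes that stand apart are double mutants with path2-1. The labels give no batch. They name pots of different sizes and do not say which genotype grew in which, so a difference in how these plants or libraries were handled cannot be told apart from the genotype. Nuclear photosynthesis genes summed to 173200 to 199000 CPM in path1-4 and 175800 to 183500 CPM in path1-4path2-1, and of 6 seed markers 5 had no count in any of the 6 libraries.

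**Figure D1:**
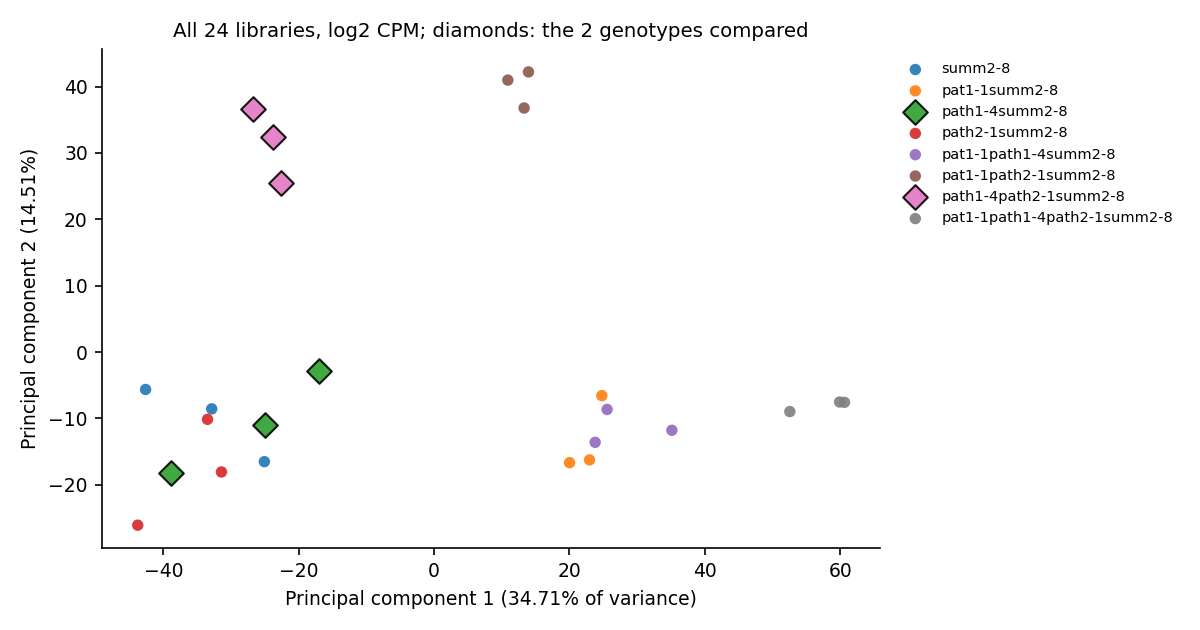
Principal components of log2 CPM in all 24 libraries, 1 point per library, coloured by genotype, with diamonds for the genotypes compared. The 3 path1-4path2-1 libraries sit at 25.5 to 36.7 on the second component, beside pat1-1path2-1, and the 3 path1-4 libraries at -18.2 to -2.83 with the rest.

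Adding path2-1 to path1-4 changed the transcripts of 3719 genes, 18.3% of those tested, at an adjusted p below 0.05 by the edgeR quasi-likelihood test. Of these, 1755 rose (8.63% of genes tested) and 1964 fell (9.65%). Which direction held more calls turned with the setting, with 1879 higher and 1865 lower by DESeq2, 1878 and 1858 with RLE size factors, 1623 and 1543 with the length trend removed, and 1686 and 1533 without the filter on low counts. Most changes were small. The median change was 1.31-fold among the genes that rose and 1.37-fold among those that fell, and 70.4% of the calls were under 1.5-fold. Changes over 2-fold were found for 254 genes that rose (1.25% of genes tested) and 184 that fell (0.904%). The 3 libraries of one genotype lay entirely above or below the 3 of the other for 6418 genes (31.5% of genes tested), among them 1666 of the genes called higher and 1828 of those called lower. Without path1-4path2-1 replicate 3 the number of calls dropped to 2226, and without path1-4 replicate 2 to 2417. A fit of only these 6 libraries called 1629 genes.

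The PATH2 transcript itself was not reduced. PATH2 (AT4G14990, chromosome 4, 8565622-8569871 in TAIR10.1) was at 71.1, 69.6 and 95.6 CPM in path1-4 and at 94.3, 96.3 and 101 CPM in path1-4path2-1. The highest path1-4 library lay within the range of the double mutant, and the fitted log2 fold change was 0.30 ± 0.097 (SE, adjusted p = 0.0335), a call that was lost in 6 of the 12 alternative settings, with adjusted p-values up to 0.172. The counts show no loss of PATH2 RNA that would check the label, and what path2-1 does to the PATH2 protein was not measured here. PATH1 rose slightly, by 0.26 ± 0.067 (adjusted p = 0.00941), from 48.2, 44.6 and 54.0 CPM to 56.8, 57.7 and 61.9 CPM, a call lost in 4 settings with adjusted p-values up to 0.101. PAT1 was at 43.4 to 54.8 CPM in path1-4 and 53.6 to 59.3 CPM in path1-4path2-1 (0.23 ± 0.097, adjusted p = 0.104), and SUMM2 at 3.57 to 5.35 and 4.78 to 5.40 CPM (0.25 ± 0.17, adjusted p = 0.347). Neither PAT1 nor SUMM2 passed the test.

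The genes named next for the size of their change were taken from called genes whose libraries do not overlap between the genotypes, so that separation was set by the choice. AT4G05170, annotated as a basic helix-loop-helix DNA-binding protein (chromosome 4, 2667798-2669441), was at 2.09, 2.00 and 2.60 CPM in path1-4 and at 36.9, 40.3 and 41.5 CPM in path1-4path2-1. Its log2 fold change was 4.14 ± 0.16 (adjusted p = 7.25e-13), a call that held in all 12 alternative settings. CYP71A25, a cytochrome P450, was at 3.06, 3.57 and 3.93 CPM and at 13.8, 13.9 and 15.2 CPM, a log2 fold change of 2.03 ± 0.14 (adjusted p = 3.64e-09). NAXT1, a transporter that exports nitrate across the plasma membrane, was at 4.27, 4.43 and 4.08 CPM and at 13.7, 13.2 and 15.3 CPM, a log2 fold change of 1.73 ± 0.13 (adjusted p = 1.19e-08). The replicates of each genotype were close together in both genes.

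SPPL5, a member of the signal peptide peptidase-like family of membrane proteases, rose from 1.21 to 1.75 CPM in path1-4 to 4.68 to 5.81 CPM (log2 fold change 1.88 ± 0.23). The serine carboxypeptidase-like gene SCPL31 rose from 1.08 to 1.63 CPM to 3.104 to 9.16 CPM (2.2 ± 0.44), with wide scatter among the double-mutant libraries. Its mean was 6.10 CPM in the control summ2-8 and 6.18 CPM in path1-4path2-1. AT5G54240, which encodes a protein of unknown function, rose from 1.64 to 1.82 CPM to 7.79 to 9.29 CPM (2.34 ± 0.20). The fatty acid hydroxylase gene AT1G02190 rose from 0.197 to 2.09 CPM to 4.84 to 6.41 CPM (2.13 ± 0.55). Adjusted p-values of these genes ran from 1.29e-07 to 0.00938.

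KEA1 encodes a potassium-proton antiporter of the inner chloroplast envelope. It fell from 102, 100 and 123 CPM in path1-4 to 38.3, 45.7 and 45.4 CPM in path1-4path2-1, a log2 fold change of -1.33 ± 0.11 (adjusted p = 1.49e-07). NSI, a chloroplast acetyltransferase needed for state transitions, fell from 44.3, 55.1 and 47.4 CPM to 21.9, 19.9 and 22.3 CPM (log2 fold change -1.19 ± 0.080, adjusted p = 3.64e-09). FUT13, a fucosyltransferase that adds fucose to N-glycans in the Golgi, fell from 10.2, 7.57 and 8.30 CPM to 2.88, 3.70 and 3.33 CPM (log2 fold change -1.42 ± 0.13, adjusted p = 2.76e-07). The calls for these 3 genes held in all 12 alternative settings.

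The largest decrease among genes with a symbol was that of SQS2, the minor paralog of the sterol-pathway enzyme squalene synthase (AT4G34650, chromosome 4, 16542242-16545194). It was at 6.44, 10.14 and 8.74 CPM in path1-4 and at 0.148, 0 and 0.142 CPM in path1-4path2-1, in all 486 counts against 11. The fitted log2 fold change was -6.18 ± 0.60 (adjusted p = 1.03e-06), a call that was not followed across the alternative settings. SQS2 lies next to its paralog SQS1, and reads shared between the copies may have been divided by the counting step, which is not given in the sources used here. Other large decreases were those of ARL, a gene of organ growth (36.2 to 15.1 CPM in the genotype means, log2 fold change -1.25 ± 0.18), ST2A, a sulfotransferase of hydroxyjasmonate (387 to 155 CPM, -1.32 ± 0.24), and PBP1, a calcium-binding partner of the PINOID kinase (3.44 to 1.41 CPM, -1.24 ± 0.22). The cell wall extensins EXT3 and EXT4 fell from means of 440 and 296 CPM to 162 and 117 CPM, but both calls were lost without path1-4 replicate 1 and without path1-4path2-1 replicate 3, and that of EXT3 also without path1-4 replicate 2 or path1-4path2-1 replicate 2, with adjusted p-values up to 0.115 for EXT3 (ATEXT3) and 0.0986 for EXT4 (ATEXT4). AT7SL-1, an RNA component of the signal recognition particle, fell from 24.9 to 8.98 CPM (-1.46 ± 0.20). Among genes without a symbol, the TRAF-like gene AT4G01390 fell from 3.45, 11.6 and 22.7 CPM to 2.88, 1.03 and 2.71 CPM (-2.44 ± 0.61), so that the path1-4 libraries differed widely and the lowest of them lay just above the double mutant. AT4G22470, of the lipid transfer protein family, fell from 3.86 to 12.6 CPM to 0.968 to 1.68 CPM (-2.42 ± 0.51), and AT4G04223, a non-coding RNA, from 9.93 to 16.8 CPM to 2.19 to 4.68 CPM (-2.05 ± 0.27).

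**Figure D2:**
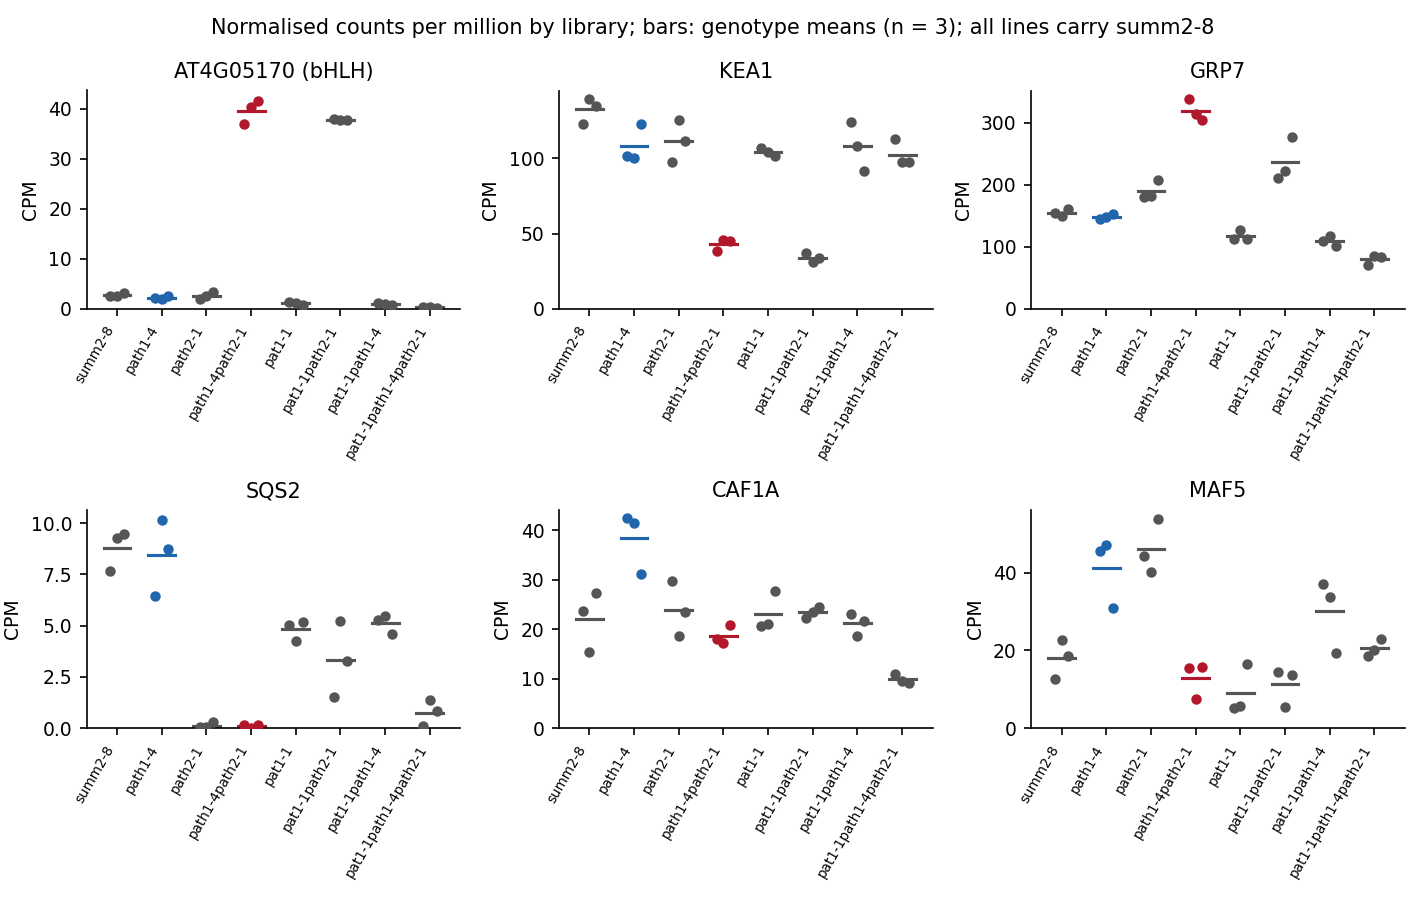
CPM of 6 genes in every library of the 8 genotypes, with bars at genotype means (n = 3), path1-4 in blue and path1-4path2-1 in red. AT4G05170 has means of 39.6 and 37.8 CPM in path1-4path2-1 and pat1-1path2-1, and GRP7 has means of 319 and 237 CPM there. SQS2 is near 0 in path2-1 and path1-4path2-1 and low in the triple mutant. CAF1A is higher in path1-4 than in the control and path1-4path2-1, and MAF5 is high in both path1-4 and path2-1.

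Genes encoded in the chloroplast genome rose together. Of 133, 107 passed the filter on low counts, and 73 of these rose while 0 fell, against 8.63% and 9.65% of all genes tested. No chloroplast gene was lower at an unadjusted p below 0.05 either, by edgeR, and DESeq2 called 77 higher and 0 lower. Their median log2 fold change was 0.94, beside -0.016 over all genes tested. The share of all counts that fell on chloroplast genes was 1.31%, 0.888% and 1.42% in path1-4 and 1.67%, 2.96% and 2.496% in path1-4path2-1. It was 1.08 to 1.87% in the other 18 libraries, so 2 of the 3 double-mutant libraries exceeded all others of the study. Whether the library method enriched polyadenylated RNA is not given in the sources used here. In bulk tissue, more cells of a type and more RNA per cell cannot be told apart. The part of this share in the values of single genes was not tested, and the chloroplast genes are not independent of each other.

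The medians are given by groups set from the gene symbols, and differences between groups were not tested. PSBG, an older name of NDHK, was thus counted with photosystem II (0.54 ± 0.13, called higher). YCF6, ORF31 and ATCG00800, also called higher, were counted with no complex, although they encode PETN, PETL and RPS3. The counts are therefore not those of whole complexes. Of 10 genes with symbols of the NAD(P)H dehydrogenase-like complex, which carries cyclic electron flow around photosystem I, 8 rose, with a median log2 fold change of 1.83. NDHG was at 3.80, 2.00 and 3.58 CPM in path1-4 and at 6.90, 21.9 and 16.2 CPM in path1-4path2-1 (2.2 ± 0.33, adjusted p = 0.000123). NDHH was at 45.5, 31.7 and 44.1 CPM and at 80.5, 193 and 150 CPM (1.79 ± 0.28, adjusted p = 0.000199). Path1-4path2-1 replicate 1 was the lowest library of the double mutant in both genes.

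NDHA, NDHI, NDHE and NDHD, whose genes lie beside these with PSAC between them, rose by 1.80 to 1.97 on the log2 scale. PSAC, the iron-sulphur subunit of photosystem I, was at 1.396, 1.29 and 2.26 CPM and at 3.20, 10.3 and 7.32 CPM (2.04 ± 0.34, adjusted p = 0.000341). The other photosystem I genes rose less, PSAA by 0.77 ± 0.17 and PSAB by 0.67 ± 0.17. Of 16 genes with photosystem II symbols 9 rose, PSBG among them, with a median of 0.57. Within them PSBD, PSBC and YCF9, which lie side by side, rose by 1.58, 1.86 and 1.53, while PSBA, the reaction centre protein with the fastest turnover, rose by 0.57 ± 0.17 with overlapping libraries (35.6 to 36.7 CPM against 36.4 to 72.7 CPM). PSBM did not pass the test (-0.095 ± 0.15, 646 to 666 CPM against 415 to 802 CPM).

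All 4 genes of the plastid-encoded RNA polymerase rose (median 1.32), RPOC2 most, by 1.70 ± 0.31. So did all 6 of the ATP synthase (median 0.82), 3 of 4 with cytochrome b6f symbols (0.86) and 20 of 25 with symbols of ribosomal proteins (1.14). RBCL, the large subunit of Rubisco, rose as well (0.95 ± 0.30, adjusted p = 0.0330). ATPB, a subunit of the ATP synthase, was at 4148, 2107 and 4949 CPM and at 5090, 8585 and 7349 CPM. Of 20 transfer RNA genes 7 rose (median 0.58). Genes such as NDHB and RPS7 lie in the inverted repeat of the chloroplast genome in 2 copies, and their counts could be divided between copies. Path1-4 replicate 2, the shallowest library, had the lowest chloroplast share and path1-4path2-1 replicate 2 the highest. The number of chloroplast genes called higher ranged from 54 to 86 when 1 library was left out, the lowest without the latter and the highest without path1-4path2-1 replicate 1.

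**Figure D3:**
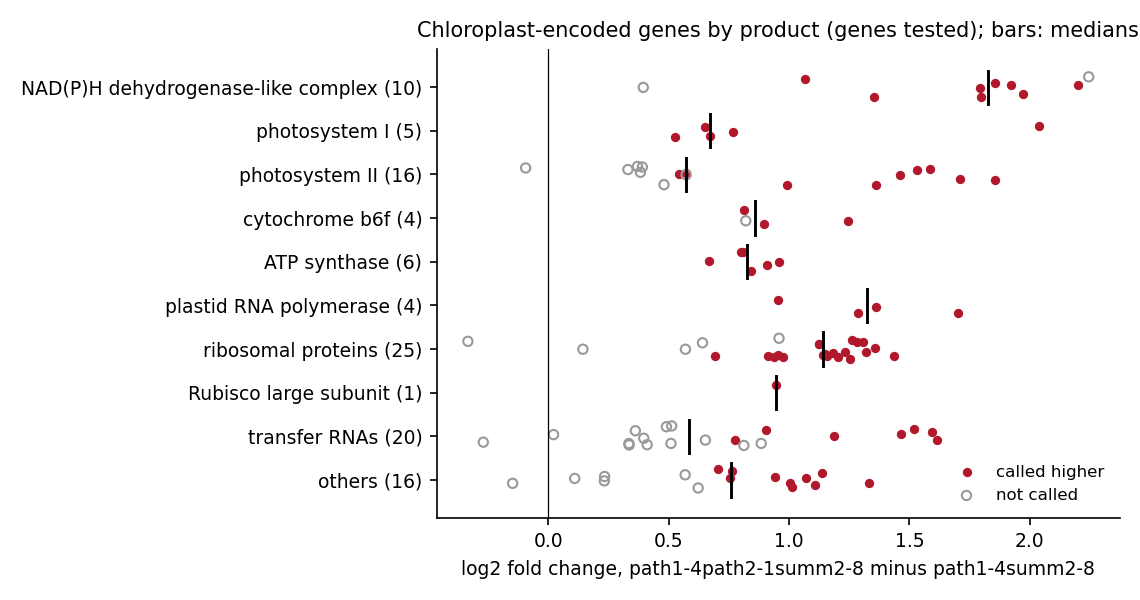
Log2 fold changes (path1-4path2-1 minus path1-4) of the 107 chloroplast-encoded genes tested, grouped by gene symbol, with filled points for the 73 called higher, open points for the 34 not called and bars at medians. NAD(P)H dehydrogenase-like genes have the highest median, 1.83, and photosystem II genes the lowest, 0.57.

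Nuclear genes for the same photosynthetic machinery did not rise with them. Of 47, 2 rose and 8 fell, with a median of -0.090. RCA, which activates Rubisco, rose from 6683 to 7996 CPM to 9150 to 9846 CPM (0.38 ± 0.095, adjusted p = 0.00787). PSAD-1, which docks ferredoxin at photosystem I, fell from 8781 to 9538 CPM to 6325 to 6925 CPM (-0.49 ± 0.093, adjusted p = 0.00115), and PSAF (-0.37 ± 0.086) and the plastocyanin gene PETE1 (-0.50 ± 0.11) fell as well. With a trend in gene length removed from each library, 3 were called higher and 2 lower, and the median became 0.007. The number called lower was 3 or 4 without path1-4 replicate 2 or any 1 of the path1-4path2-1 libraries. Of 34 genes encoded in the mitochondrion, 6 fell, 1 rose and 27 were not called (median -0.35), against 9.65% lower and 8.63% higher among all genes tested. ATP6-2, a subunit of the mitochondrial ATP synthase, fell from 4.23, 4.50 and 5.16 CPM to 2.39, 2.15 and 1.99 CPM (-1.08 ± 0.17, adjusted p = 0.000245). Mitochondrial genes took 0.0134 to 0.0201% of the counts in path1-4 and 0.0158 to 0.0183% in path1-4path2-1, so the totals overlapped. The number called lower was 3 without path1-4 replicate 3.

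Transcripts that plants raise within minutes of touch or stress were lower in path1-4path2-1. Of 28 such genes tested, 10 fell and 0 rose, against 9.65% and 8.63% of all genes tested, and the median was -0.47. At an unadjusted p below 0.05 by edgeR 15 were lower and 0 higher, where 6479 of all 20346 genes passed in either direction, and DESeq2 called 11 lower and 0 higher. The number called lower was 4 without path1-4path2-1 replicate 3, 5 without path1-4path2-1 replicate 2 and 6 without path1-4 replicate 2. The 10 genes are DREB26, TCH4, CAF1A, ERF104, MKK9, TCH2, CAF1B, ERF5, MYB44 and WRKY11.

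CAF1A and CAF1B encode stress-induced deadenylases of the CCR4-NOT complex, which shorten poly(A) tails ahead of decapping. CAF1A (AT3G44260) was at 42.5, 41.6 and 31.2 CPM in path1-4 and at 18.0, 17.1 and 20.9 CPM in path1-4path2-1 (-1.04 ± 0.18, adjusted p = 0.000474). Every double-mutant library was below every path1-4 library, and the call held in all 12 alternative settings. The control summ2-8 had a mean of 22.1 CPM, against 38.4 CPM in path1-4 and 18.7 CPM in path1-4path2-1. CAF1B was at 6.499 to 7.27 CPM and 3.44 to 4.56 CPM (-0.73 ± 0.21, adjusted p = 0.0209), a call that held in 9 of the 12 settings, with adjusted p-values up to 0.0859.

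DREB26, a transcription factor of the AP2/ERF family, was at 23.3, 21.1 and 12.7 CPM in path1-4 and at 7.12, 5.29 and 7.72 CPM in path1-4path2-1 (-1.49 ± 0.33, adjusted p = 0.00354). ERF104, an ethylene response factor released on immune signalling, was at 39.6, 35.9 and 41.4 CPM and at 17.45, 19.1 and 22.6 CPM (-0.99 ± 0.23, adjusted p = 0.00556). MKK9, a kinase upstream of MPK3 and MPK6, fell from 34.8 to 43.9 CPM to 20.7 to 25.9 CPM (-0.79 ± 0.17, adjusted p = 0.00300). The groups did not overlap in ERF104 or MKK9, and the calls for all 3 genes held in all 12 alternative settings.

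The touch genes varied more. TCH4, a xyloglucan-modifying enzyme of the cell wall, was at 53.5, 54.9 and 29.2 CPM and at 20.2, 21.5 and 18.5 CPM (-1.19 ± 0.40, adjusted p = 0.0422), with path1-4 replicate 3 well below its partners. Its call was lost in 6 settings, with adjusted p-values up to 0.135. TCH2, a calmodulin-like protein, was at 12.7 to 22.6 CPM and 10.3 to 12.6 CPM (-0.74 ± 0.20, adjusted p = 0.0140), a call lost in 5 settings. Of the members not called, WRKY33 was at a mean of 106 and 94.8 CPM and MPK3 at 246 and 192 CPM.

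The 300 bases before the start of each gene were read from TAIR10.1 to see whether these genes share the rapid stress response element CGCGTT, a short motif defined in promoters of wound- and stress-induced genes. The motif, on either strand, was in 1 of the 10 promoters of the genes that fell, in 1 of 28 promoters of the list (3.57%) and in 645 of 19394 promoters of all protein-coding genes tested (3.33%). The one promoter was that of TCH2 (chr5:14999620-14999919, minus strand), printed because it is the only match. Its capitals mark CGCGTT and, overlapping it, its reverse complement, which together read AACGCGTT at both places.
TCH2: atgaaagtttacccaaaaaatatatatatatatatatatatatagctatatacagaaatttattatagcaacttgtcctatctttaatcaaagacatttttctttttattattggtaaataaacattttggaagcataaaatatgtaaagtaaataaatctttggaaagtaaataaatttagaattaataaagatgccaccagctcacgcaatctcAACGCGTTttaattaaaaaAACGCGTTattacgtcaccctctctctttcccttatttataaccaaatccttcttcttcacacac
Among genes called lower overall 58 of 1881 promoters (3.08%) had the motif and among genes called higher 57 of 1622 (3.51%), close to the share of all promoters. A second motif, the G-box CACGTG, was searched in the same promoters and found in 8.04% of them. It was in 2 of 28 promoters of the rapid stress list and in 0 of the 10 that fell. For the shade-response genes described next, these counts were 2 of 21 and 0 of 7.

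Shade-response genes formed another group with more decreases than increases. Of 21 tested, 7 fell and 1 rose, against 9.65% and 8.63% of all genes tested, with a median of -0.17, and between 6 and 8 were called lower in each of the 12 alternative settings. HB-2, a homeodomain-leucine zipper factor induced by shade, was at 149, 181 and 210 CPM in path1-4 and at 117, 100 and 113 CPM in path1-4path2-1 (-0.71 ± 0.11, adjusted p = 0.000245). PKS4, a phytochrome-associated protein of hypocotyl growth, was at 40.9, 32.5 and 43.1 CPM and at 24.0, 20.3 and 22.4 CPM (-0.81 ± 0.13, adjusted p = 0.000200). PAR2, a small bHLH protein that restrains shade responses, fell from 10.8 to 18.8 CPM to 7.72 to 9.17 CPM (-0.85 ± 0.15, adjusted p = 0.000578). No path1-4 library was as low as any double-mutant library in these 3 genes. Auxin genes overlapped with the shade list in IAA29, which fell from 79.1 to 107 CPM to 51.6 to 68.5 CPM (-0.60 ± 0.12, adjusted p = 0.00204). Of 33 auxin genes, 6 fell and 2 rose (median -0.13). The repressors IAA2 (-0.54 ± 0.093) and IAA19 (-0.71 ± 0.16) and the influx carrier LAX2 (-0.49 ± 0.13) were lower, and IAA17 was higher (0.51 ± 0.096). The LAX2 call held in 10 of the 12 settings, with adjusted p-values up to 0.0713.

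Among clock genes, 6 of 14 morning genes rose and 1 fell (median 0.25), and 4 of 13 afternoon and evening genes rose and 1 fell (median 0.11), against 8.63% and 9.65% of all genes tested. With the length trend removed, 2 of the afternoon and evening genes were called higher. The morning repressor CCA1 was at 60.7, 55.9 and 63.2 CPM and at 79.9, 83.2 and 86.6 CPM (0.47 ± 0.074, adjusted p = 0.000201), and its partner LHY was at 51.5, 54.4 and 73.3 CPM and at 89.6, 85.9 and 86.6 CPM (0.55 ± 0.11, adjusted p = 0.00145). GRP7, an RNA-binding protein of a slave oscillator under clock control, had the smallest adjusted p of the afternoon and evening list. It went from 144, 148 and 152 CPM to 339, 315 and 304 CPM (1.11 ± 0.096, adjusted p = 1.54e-07). All these libraries stood apart by genotype. LHY also rose on adding path2-1 to the control, pat1-1 and pat1-1path1-4, by 0.68, 0.315 and 0.80. By edgeR the adjusted p in the control was 0.0251, and that of the difference between path1-4 and the control was 0.641. PRR3 rose from 1.16 to 2.11 CPM to 2.88 to 3.89 CPM (1.11 ± 0.22), GI from 54.1 to 59.7 CPM to 70.6 to 70.8 CPM (0.29 ± 0.070), and JMJD5, a jumonji-domain oxygenase that peaks in the evening, fell from 3.499 to 4.32 CPM to 1.38 to 2.14 CPM (-1.02 ± 0.18). The hour of harvest is not given in the labels, and its part in these values was not tested.

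Flowering-time genes moved both ways, 4 higher and 4 lower of 23, against 8.63% and 9.65% of all genes tested. AGL24, a MADS-box promoter of flowering, was at 12.8, 12.4 and 12.2 CPM and at 7.27, 6.45 and 5.84 CPM (-0.94 ± 0.085, adjusted p = 3.70e-07). AGL19, another MADS-box promoter of flowering, went up, from 2.75, 4.36 and 3.09 CPM to 9.81, 8.78 and 10.2 CPM (1.53 ± 0.20, adjusted p = 3.74e-05), and AGL20, also known as SOC1, rose from 45.5 to 53.1 CPM to 61.0 to 72.9 CPM (0.46 ± 0.090). The repressors TEM1 and TEM2 fell from means of 68.5 and 175 CPM to 34.4 and 89.5 CPM (-0.99 ± 0.17 and -0.97 ± 0.15). MAF5, a repressor of the FLC clade, fell from 45.7, 47.1 and 30.9 CPM to 15.4, 7.57 and 15.8 CPM (-1.65 ± 0.37, adjusted p = 0.00377). FLC itself did not pass the test (1.57 to 3.45 CPM against 1.11 to 2.02 CPM, adjusted p = 0.128).

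Leaf margin, polarity and meristem genes had 6 increases and 0 decreases of 27 by edgeR (median 0.19), against 8.63% and 9.65% of all genes tested. At an unadjusted p below 0.05 by edgeR, 10 were higher and 1 lower, where 6479 of all 20346 genes passed in either direction. DESeq2 called 7 higher and 0 lower. KNAT1, a homeobox gene of the shoot meristem that is normally silent in leaf blades, was at 1.202, 0.928 and 0.491 CPM and at 4.29, 8.13 and 1.71 CPM (2.36 ± 0.59, adjusted p = 0.00800). The groups did not overlap, but the double-mutant libraries differed widely, and without path1-4path2-1 replicate 2 the adjusted p was 0.0502. REV, which sets the upper leaf side, rose by 0.48 ± 0.12 with overlapping libraries (6.57 to 9.46 CPM against 9.41 to 13.0 CPM), a call that held in 9 of the 12 settings, with adjusted p-values up to 0.0975. The count of increases fell to 1 without path1-4 replicate 2 or path1-4path2-1 replicate 2, to 2 without path1-4path2-1 replicate 1 or in the fit of 6 libraries, and to 3 without path1-4 replicate 1. Of 18 cell cycle genes, 4 rose and 0 fell, all 4 subunits of the MCM helicase that loads at replication origins, with 4 higher and 0 lower both at an unadjusted p below 0.05 and by DESeq2. MCM3 was at 8.92, 7.29 and 7.71 CPM and at 12.7, 13.7 and 13.0 CPM (0.71 ± 0.12, adjusted p = 0.000294), and MCM2, MCM5 and MCM7 rose by 0.55 to 0.63. The count was 2 without path1-4path2-1 replicate 2.

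The nitrate reductases NIA1 and NIA2, the entry enzymes of nitrate assimilation, rose from means of 61.7 and 218 CPM to 123 and 356 CPM (1.00 ± 0.20 and 0.71 ± 0.21), and the repressor LBD37 fell by 0.43 ± 0.12 on the log2 scale. The calls for NIA2 and LBD37 were each lost in 3 of the 12 alternative settings, with adjusted p-values up to 0.116 and 0.0789. SWEET11, a sucrose exporter of the phloem, was at 32.5, 33.1 and 27.4 CPM and at 66.9, 61.3 and 61.3 CPM (1.03 ± 0.17, adjusted p = 0.000257). Starch breakdown genes SEX1 (0.56 ± 0.093) and BAM3 (0.51 ± 0.085) rose, and the phosphorylase PHS1 fell (-0.66 ± 0.10). In all, 3 of 24 starch and sugar genes rose and 2 fell, against 8.63% and 9.65% of all genes tested.

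Of 24 decapping and decay genes, 2 rose and 2 fell, the latter being CAF1A and CAF1B. Among all genes tested 8.63% rose and 9.65% fell, the shares to set beside each list in this paragraph. SOV, an exoribonuclease that works independently of decapping, was at 18.9, 17.9 and 19.1 CPM and at 31.5, 31.5 and 32.4 CPM (0.77 ± 0.081, adjusted p = 2.51e-06), and the nuclear exonuclease XRN3 rose by 0.33 ± 0.067. Immunity and MPK4 pathway genes passed the test in no case, 0 of 30 and 0 of 7 by edgeR. At an unadjusted p below 0.05, 3 immunity genes were higher and 0 lower, DESeq2 called 1, and for the MPK4 pathway both counts were 0. Cytokinin genes had 3 higher and 3 lower of 27, among them the receptors AHK2 (0.38 ± 0.096) and AHK3 (0.28 ± 0.069) and, at low counts, ASL9 (0.295 to 1.28 CPM against 1.45 to 1.98 CPM, adjusted p = 0.0258, a call lost in 5 settings with adjusted p-values up to 0.135). The calls for AHK2 and AHK3 each held in 10 of the 12 settings, with adjusted p-values up to 0.098 and 0.126. Of the members that fell, AHP5 (-0.488 ± 0.09, adjusted p = 0.000848) and ARR12 kept their calls in all 12 settings. Abscisic acid genes had 3 higher and 3 lower of 24, brassinosteroid and gibberellin genes 1 higher and 3 lower of 21, heat genes 1 higher and 2 lower of 18 and iron genes 1 higher and 1 lower of 9. Of 13 cold genes 3 rose, and of 13 phosphate starvation genes 1. Decreases alone were called for 2 of 32 jasmonate genes, 3 of 26 glucosinolate genes, 2 of 23 flavonoid genes, 2 of 15 senescence genes and 1 of 23 cell wall loosening genes, where 9.65% of all genes tested fell. Such small counts moved with single libraries. Cytokinin genes had 3 higher and 8 lower without path1-4 replicate 3, and 1 higher and 2 lower without path1-4 replicate 2. Cold genes had 1 higher and 2 lower without path1-4 replicate 1, and 1 higher without path1-4path2-1 replicate 3. Decay genes had 5 higher and 1 lower without path1-4 replicate 3. Leaving out 1 library gave 1 to 3 higher and 0 to 4 lower for abscisic acid genes, and 0 to 3 lower for glucosinolate and for senescence genes.

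Markers of other cell types were checked beside these groups. The summed level of 7 stomatal markers was 90.4 to 96.3 CPM in path1-4 and 78.4 to 87.6 CPM in path1-4path2-1, and 1 of the 7, MYB60, fell (-0.36 ± 0.11, adjusted p = 0.0251), a call lost in 6 settings with adjusted p-values up to 0.124. That of 8 root markers was 81.0 to 89.1 CPM and 91.6 to 101.7 CPM, with 0 of 4 tested called by edgeR or DESeq2, 1 higher at an unadjusted p below 0.05, and the root hair genes RHD6 and EXPA7 without a count. Phloem, xylem, trichome and flower markers overlapped between the genotypes, and 0 of 17 tested were called by edgeR or DESeq2 or passed at an unadjusted p below 0.05. The part of these markers in the results was not tested.

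**Figure D4:**
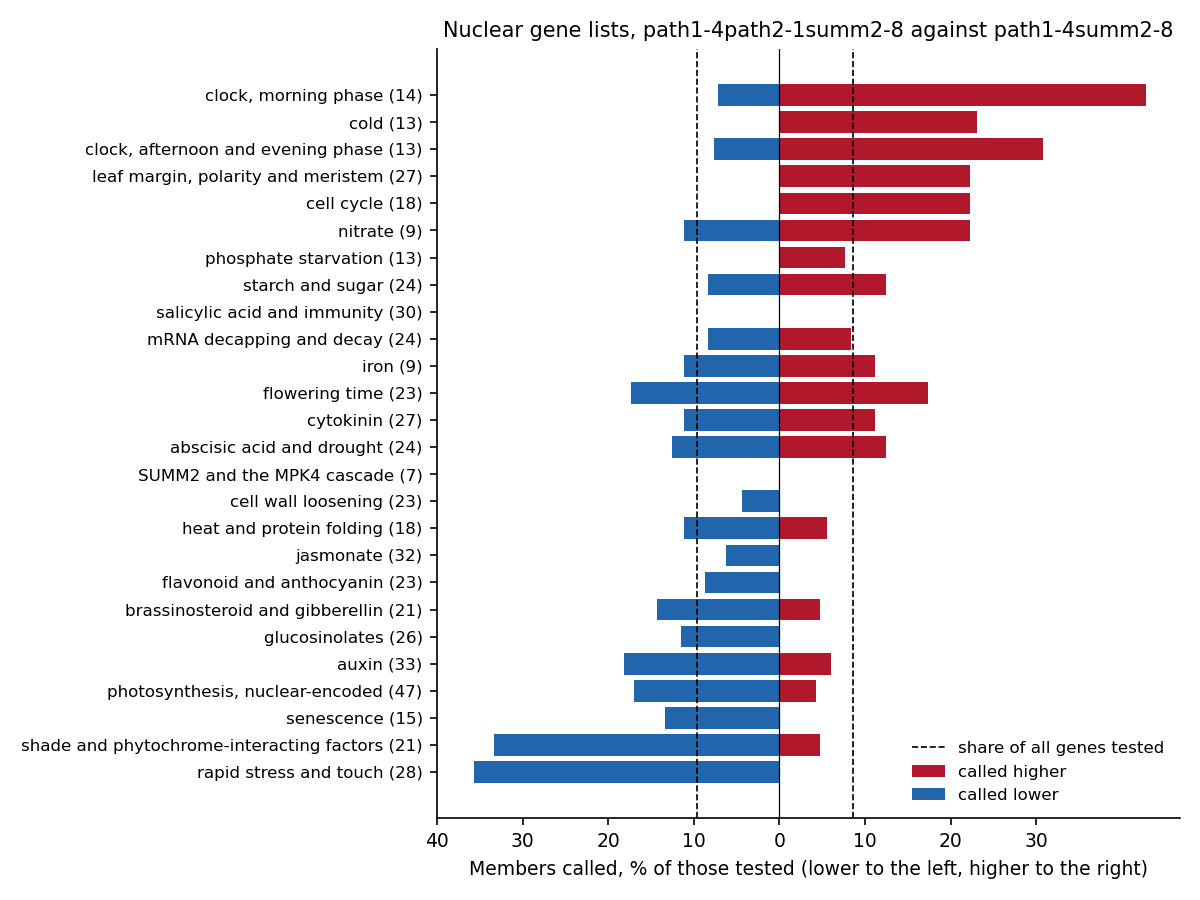
Share of the tested members of each nuclear gene list that were called higher (red, right) or lower (blue, left) in path1-4path2-1 against path1-4, with numbers tested in brackets and dashed lines at the shares of all genes, 8.63% and 9.65%. Rapid stress and shade genes have the largest shares of decreases, and morning clock genes the largest share of increases.

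The effect of path2-1 could be measured in 3 other backgrounds with libraries that share none of these 6. Added to the control summ2-8, path2-1 changed 4 genes (0.0197% of those tested), 2 higher (0.00983%) and 2 lower (0.00983%), although 2832 had an unadjusted p below 0.05, and DESeq2 called 125. Added to pat1-1 it changed 4424 genes (21.7%), of which 2094 rose (10.3%) and 2330 fell (11.5%). Added to pat1-1path1-4 it changed 3426 (16.8%), of which 1654 rose (8.13%) and 1772 fell (8.71%). Of the 3719 genes changed in the path1-4 background, 1689 were also called in the same direction in the pat1-1 background, which is 45.4% of the former and 38.2% of the latter, and 47 were called in the opposite direction. In the pat1-1path1-4 background 653 were called in the same direction (17.56% and 19.1%) and 229 in the opposite one. Across all 20346 genes the log2 fold changes correlated at r = 0.475 with those in pat1-1, 0.198 with those in pat1-1path1-4 and -0.04 with those in the control, as a description across genes, which are not independent.

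**Figure D5:**
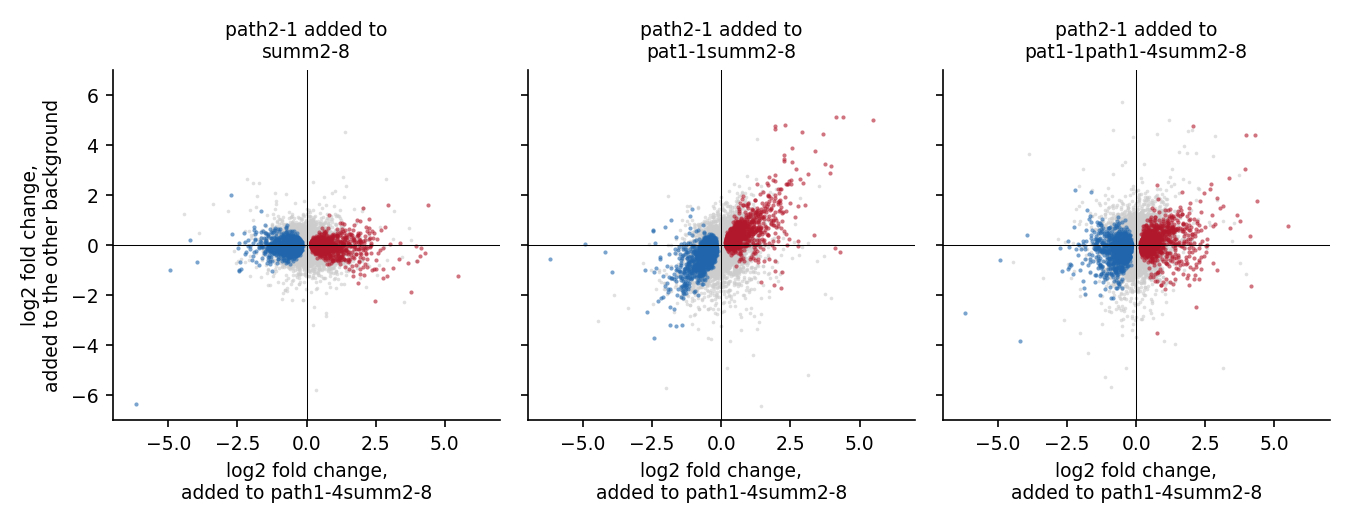
Log2 fold change of each of 20346 genes on adding path2-1 to path1-4 (x axis) and to each other background (y axis), red for genes called higher and blue for genes called lower in path1-4. The points follow a diagonal for pat1-1 (r = 0.475) and lie flat for the control (r = -0.04).

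The difference between backgrounds was tested directly as an interaction. The effect in path1-4 differed from that in the control for 1674 genes (8.23%), with a more positive effect in 768 (3.77%) and a more negative one in 906 (4.45%). It differed from that in pat1-1 for 375 (1.84%), 132 more positive (0.649%) and 243 more negative (1.19%), and from that in pat1-1path1-4 for 2663 (13.1%), 1310 more positive (6.44%) and 1353 more negative (6.65%). Some of the genes with small p-values changed in the same direction in path1-4 and pat1-1, though CYP71A25, described below, differed between these backgrounds. AT4G05170 rose by 5.14 when path2-1 was added to pat1-1, to a mean of 37.8 CPM, and changed by -0.10 in the control and -1.63 in pat1-1path1-4. The difference from the control passed the test (adjusted p = 1.21e-09), as did that from pat1-1path1-4 (3.06e-09) and, narrowly, that from pat1-1 (0.0470). KEA1 fell by 1.62 in pat1-1 and changed by -0.25 and -0.073 in the control and in pat1-1path1-4, where the differences were again called (adjusted p = 0.000388 and 3.63e-05). NSI, FUT13, NAXT1, GRP7, AGL19 and AGL24 had effects of the same sign and of 1.0 to 1.75 in size in pat1-1, differences from pat1-1 with adjusted p-values of 0.284 or more, and differences from the control and from pat1-1path1-4 with adjusted p-values of 0.00474 or less. An adjusted p above the threshold does not show that the effects are equal.

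For chloroplast genes the effect differed from that in the control in 64 of 107 genes, from that in pat1-1 in 0 and from that in pat1-1path1-4 in 1. Among all genes tested these differences were called for 8.23%, 1.84% and 13.1%. Of all genes tested, 10.3% rose and 11.5% fell on adding path2-1 to pat1-1, and 8.13% rose and 8.71% fell on adding it to pat1-1path1-4. The median log2 fold change of the chloroplast genes was -0.21 in the control, 0.49 in pat1-1 and 0.58 in pat1-1path1-4, and 27 of them rose in pat1-1 and 31 in pat1-1path1-4. Of 28 rapid stress genes, 12 fell on adding path2-1 to pat1-1path1-4 and 5 on adding it to pat1-1. Their medians were -0.10 in the control, -0.23 in pat1-1 and -0.36 in pat1-1path1-4. The difference was called for 3, 1 and 3 of the 28 against the control, pat1-1 and pat1-1path1-4. Of 21 shade genes, 13 fell on adding path2-1 to pat1-1path1-4, with a median of -0.48. On adding it to pat1-1, 5 rose and 4 fell (median -0.045), and in the control the median was 0.084. HB-2 changed by 0.35, -0.21 and -1.70 in the control, pat1-1 and pat1-1path1-4, and its difference was called against the control and against pat1-1path1-4 (adjusted p = 0.000476 and 0.000472). On adding path2-1, 8 of 13 cold genes rose in pat1-1 (median 0.68) and 8 of 13 fell in pat1-1path1-4 (median -0.77). In path1-4, 3 of 13 rose (median 0.22), and that count changed when single libraries were left out. COR15B, a chloroplast-protecting protein of cold acclimation, changed by 0.69 in path1-4 and -1.42 in pat1-1path1-4 (adjusted p of the difference 1.00e-05).

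Several genes had an effect in the path1-4 background that differed from that in pat1-1. CYP71A25 rose by 2.03 in path1-4 and changed by 0.35 in pat1-1, -0.19 in the control and 0.46 in pat1-1path1-4, and all 3 differences were called (adjusted p = 4.36e-05, 6.25e-07 and 2.035e-05). Its mean level was 9.71 CPM in the control, 3.52 CPM in path1-4, 8.48 CPM in path2-1 and 14.3 CPM in path1-4path2-1. The actin-related gene ARP9 and SHL1, a chromatin reader that affects flowering, had effects of opposite sign in path1-4 and pat1-1. ARP9 was at 34.3, 13.8 and 19.5 CPM in path1-4 and 9.42 to 11.2 CPM in path1-4path2-1, with 11.4 CPM in the control, and its effect of -1.15 in path1-4 stood against 1.18 in pat1-1 (adjusted p of the difference 0.000386). SHL1 was at 34.0, 38.0 and 39.9 CPM in path1-4, 23.0 to 24.8 CPM in path1-4path2-1 and 20.7 CPM in the control, with effects of -0.63 and 0.54 (adjusted p = 2.10e-05).

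The mean of MAF5 was 18.0 CPM in the control, 41.2 in path1-4, 46.1 in path2-1 and 12.9 in path1-4path2-1. Its effect was -1.65 in path1-4 and 1.35 in the control (adjusted p of the difference 0.00181), and the change in the control did not itself pass the test (adjusted p = 0.171). Path1-4 was not tested against the control for any gene named here. KNAT1 had means of 4.02, 0.874, 1.96 and 4.71 CPM in the same 4 genotypes, and its effect of 2.36 differed from -0.99 in the control (adjusted p = 0.0123). SQS2 behaved alike in path1-4 and in the control, with a change of -6.35 in the latter and a mean of 0.115 CPM in path2-1, and differed from pat1-1, where it changed by -0.55 (4.81 to 3.33 CPM, adjusted p of the difference 0.000724), and from pat1-1path1-4, where it changed by -2.71 (adjusted p = 0.0129). SQS2 was low in path2-1, path1-4path2-1 and the triple mutant (mean 0.757 CPM) but at 3.33 CPM in pat1-1path2-1, although all 4 genotypes carry path2-1.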

How the data were processed

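RNA from above-ground tissue of 8 genotypes was sequenced in 24 libraries, 3 per genotype, on a BGISEQ-500 instrument, per the labels. STAR 2.5.1b and the build TAIR10 are named in the submitters' processing notes. How reads were assigned to genes, with which annotation and whether by strand, is not given in the sources used here, so reads of a gene and of an overlapping antisense gene cannot be told apart. The authors deposited a table of raw counts per gene in whole numbers and a table of TPM. In 20229 of 20229 genes counted in every library, the deposited TPM divided by the count was constant within 0.1% after library scaling. Only the counts were tested, and the TPM served to give relative gene length.

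Low genes were dropped by the filterByExpr defaults of edgeR 4.0.16 (R 4.3.3), which left 20346 of 37336 genes. Libraries were scaled with TMM factors. All 24 libraries entered 1 quasi-likelihood fit, each genotype having its own coefficient, so the spread is estimated over all genotypes (biological coefficient of variation 10.91%), and 7 contrasts were tested two-sided with the F test and Benjamini-Hochberg adjustment over all 20346 genes. A gene is called at an adjusted p below 0.05, and "rose" and "fell" are used of called genes. The standard error is the log2 fold change divided by the square root of F. Alternatives were DESeq2 1.42.0, RLE size factors, keeping low genes, removal of organelle genes, removal of a trend in gene length from each library, a fit of only the genotypes compared, and leaving out each of the 6 libraries. The edgeR test was also tested on simulated data.

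The comparison, the members and the 35 gene lists were chosen with earlier results of these data known, so counts over lists are descriptions and were given no test. Of 643 list members written by symbol and gene ID, 635 matched. Left out were RH6, RH12, UGT75C1, HSP15.7, RVE6, UGT74C1, IMA1 and IMA2. Named genes are PAT1, PATH1, PATH2 and SUMM2, the 12 largest changes each way among called genes with a symbol, a mean log2 CPM of at least 1 and libraries that do not overlap, the 3 largest each way without a symbol, up to 5 called members per list by smallest adjusted p, and the 4 largest differences each way between backgrounds. The list members ERF5, MYB44 and WRKY11, the members not called WRKY33 and MPK3, and the chloroplast genes beyond the rule were named after their values were seen. Coordinates are those of RefSeq TAIR10.1, matched by locus tag. The promoters were read from the same assembly.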

Additional observations from a re-analysis of the deposited data

Results flagged for a closer look

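The effect of path2-1 in path1-4 differed between backgrounds by an interaction test for 1674 genes against the control, 375 against pat1-1 and 2663 against pat1-1path1-4. Among genes with a symbol, the largest differences in log2 fold change from the control were 3.35 for KNAT1, 3.07 for SCPL31, 2.56 for SPPL5 and 2.46 for USPL1 in the positive direction. In the negative direction they were -3.00 for MAF5, -2.76 for CSLG2, -1.94 for AT7SL-1 and -1.83 for CYP710A1. The calls for USPL1, CSLG2 and CYP710A1 were lost without path1-4 replicate 3 (adjusted p up to 0.171) and in other settings. Against pat1-1 the largest were 4.18 for the defensin PDF1.3, 3.25 for SCPL31, 2.68 for the cupin PAP85 and 1.92 for CYP71B36, and -5.64 for SQS2, -2.33 for ARP9, -1.475 for HSP70T-2 and -1.17 for SHL1. PDF1.3, PAP85 and CYP71B36 were not called in path1-4 itself, and their changes in pat1-1 were -2.75, -2.22 and -1.47. Against pat1-1path1-4 they were 3.70 for CYP81D1, 3.24 for CIPK25, 2.92 for AGL42 and 2.88 for CRK31, and -3.47 for SQS2, -2.83 for the heme oxygenase HO4, -2.76 for AATP1 and -2.32 for FLC. CYP81D1, CIPK25, AGL42, AATP1 and FLC were not called in path1-4, and the effects of -2.75, -2.70, -2.98, 1.16 and 1.495 are those on adding path2-1 to pat1-1path1-4. The calls for HSP70T-2 and AATP1 were each lost when single libraries were left out.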

How the results depend on the processing

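The count of 3719 calls stayed within 1.5 times under DESeq2 (3744), RLE size factors (3736), no filter (3219), removal of organelle genes (3626) and removal of the length trend (3166, of which 2591 were among the calls reported). A fit of only the 6 libraries called 1629, of which 1565 were shared. Leaving out 1 library gave 2226 (without path1-4path2-1 replicate 3) to 3580. For the difference from the control the fit of only the genotypes compared called 568 and leaving out a library gave 854 to 2342, the 3 lowest counts coming without path1-4 replicate 2 or path1-4path2-1 replicate 2 or 3. For the difference from pat1-1, DESeq2 called 646, leaving out a library gave 111 to 420, with drops of over 1.5 times without path1-4 replicate 2 or any path1-4path2-1 library, and removing the length trend moved the split of 132 higher and 243 lower to 193 and 227. For the difference from pat1-1path1-4 the fit of only the genotypes compared called 1770, and leaving out a library gave 1813 to 2952. Path2-1 added to the control gave 125 calls under DESeq2, of which 1 was shared, and 1 in a fit of only those genotypes. Chloroplast genes called higher were 51 to 86 and rapid stress genes called lower 4 to 11 over the settings, 4 to 8 when 1 library was left out. With organelle genes removed chloroplast genes give no value. The cause of these changes was not tested. No named gene reversed its direction in the comparison it was named for. The count of named calls over the settings covers 125 genes. It leaves out called genes named only for a difference between backgrounds, such as SQS2, HO4 and USPL1. Of the 125, 74 were called in every setting that tested them, which is 11 settings for organelle genes and 12 for the others. The most calls were lost without path1-4path2-1 replicate 3 (31) and in the fit of 6 libraries (28). No paired analysis was possible because the library numbers run on from genotype to genotype and no replicate number is shared. Depth limits the genes of lowest counts, most of all in path1-4 replicate 2, the shallowest library.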
